A study of Mus musculus with 16 samples.

Results

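Collagens, laminins and integrins are the main fibre and sheet proteins of the extracellular matrix and their cell-surface receptors. Genes of these families were taken by symbol from the 16 expression tables: Col, a number, a and a number for collagen chains, Lama, Lamb or Lamc and a number for laminin chains, and Itga or Itgb with a number or one of the letters V, L, M, X, E or D, or the symbol Itga2b, for integrin subunits. Of 24060 gene rows, 81 met this rule, of which 44 were collagens, 11 laminins and 26 integrins. The similar symbols Col4a3bp, Itgb1bp1, Itgb1bp2, Itgb3bp, Itgbl1 and Itgb2l did not meet it and were left out.

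The libraries came from whole striata and hippocampi of 4 male and female mice at postnatal day 63, numbered 970, 971, 974 and 977. Which animals were male was not stated. Every animal carried the same alleles, 1 copy of Aldh1l1-creERT2 (a Cre recombinase fused to an oestrogen receptor domain and driven from the gene of an astrocyte folate enzyme) and 1 copy of the Ribotag allele, which puts a hemagglutinin tag on the ribosomal protein Rpl22 in cells where Cre has acted. The background was FVB crossed back to C57/Bl6N for 3 generations. Each animal gave 4 libraries: striatal IP and hippocampal IP, made from RNA bound to tagged astrocyte ribosomes, and striatal input and hippocampal input, made from the cleared lysate of the same tissue. Input therefore holds the RNA of all cell types, astrocytes included, and no group was without the Cre or the tag. Values below follow the animals in the order 970, 971, 974 and 977. They are FPKM (fragments per kilobase of gene, scaled to a common sequencing total) divided by a scaling factor per library, and means are given ± SD over 4 animals. Log2 fold changes, and differences of these between regions, are given ± the standard error (SE) of the fit.

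Laminins are trimers of an α, a β and a γ chain that form sheets with type IV collagen in basement membranes, the matrix layer on which astrocyte endfeet rest around brain vessels. Other collagens build fibrils, decorate them, or cross the plasma membrane. Integrins are pairs of an α and a β subunit that bind matrix proteins outside the cell and link to actin inside it, and the pairs that contain αv can also release transforming growth factor β (TGF-β) from its latent complex.

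Depth, estimated from the steps between FPKM values, was 13920000 to 21720000 fragments in striatal IPs, 18860000 to 22560000 in hippocampal IPs, 4134000 to 8942000 in striatal inputs and 9011000 to 12210000 in hippocampal inputs. The labelled cell type was checked with marker lists. All 13 astrocyte markers tested were higher in IP than in input in both regions, and Aldh1l1 averaged 104 ± 25.3 in striatal IPs and 106 ± 9.86 in hippocampal IPs, against 4.41 ± 1.05 in striatal inputs and 4.57 ± 1.34 in hippocampal inputs. All 9 neuronal and all 9 endothelial markers tested were lower in IP in both regions, as were 12 of 13 microglial markers. Of 9 leptomeningeal fibroblast markers tested, 1 was higher and 6 lower in striatal IP, and 1 was higher and 7 lower in hippocampal IP. Slc47a1 of that list was listed at 0 in all striatal IPs. Of 7 mural markers tested, 2 were higher and 3 lower in striatal IP, and 2 were higher and 4 lower in hippocampal IP. The exception to this order was the summed level of 10 ependymal and choroid plexus markers, which was 19.91, 14.34, 15.43 and 10.43 in striatal IPs and 11.64, 16.65, 27.9 and 76.11 in hippocampal IPs, against 5.465, 4.299, 10.75 and 7.91 in striatal inputs and 8.725, 10.69, 10.92 and 20.8 in hippocampal inputs. Of the 5 ependymal and choroid plexus markers that could be tested singly, 2 were higher and 1 lower in striatal IP. In hippocampal IP 1 was higher and 2 were lower, so the sum does not stand for each marker. In RNA from bulk tissue, fewer cells of a type and less RNA per cell cannot be told apart.

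Most of the 81 genes were low. At least 1 FPKM in at least 4 libraries was reached by 32 of them: 11 collagens, 5 laminins and 16 integrins. The other 49 (33 collagens, 6 laminins and 10 integrins) had a highest group mean between 0.0141 and 1.29, and 11 of these stayed under 0.1 in every group. The lowest highest-group mean among the 32 was 1.1, for Col20a1. A gene that is high in 1 group passes this filter through that group alone, so counts over the 32 describe them and not the 81.

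**Figure D1:**
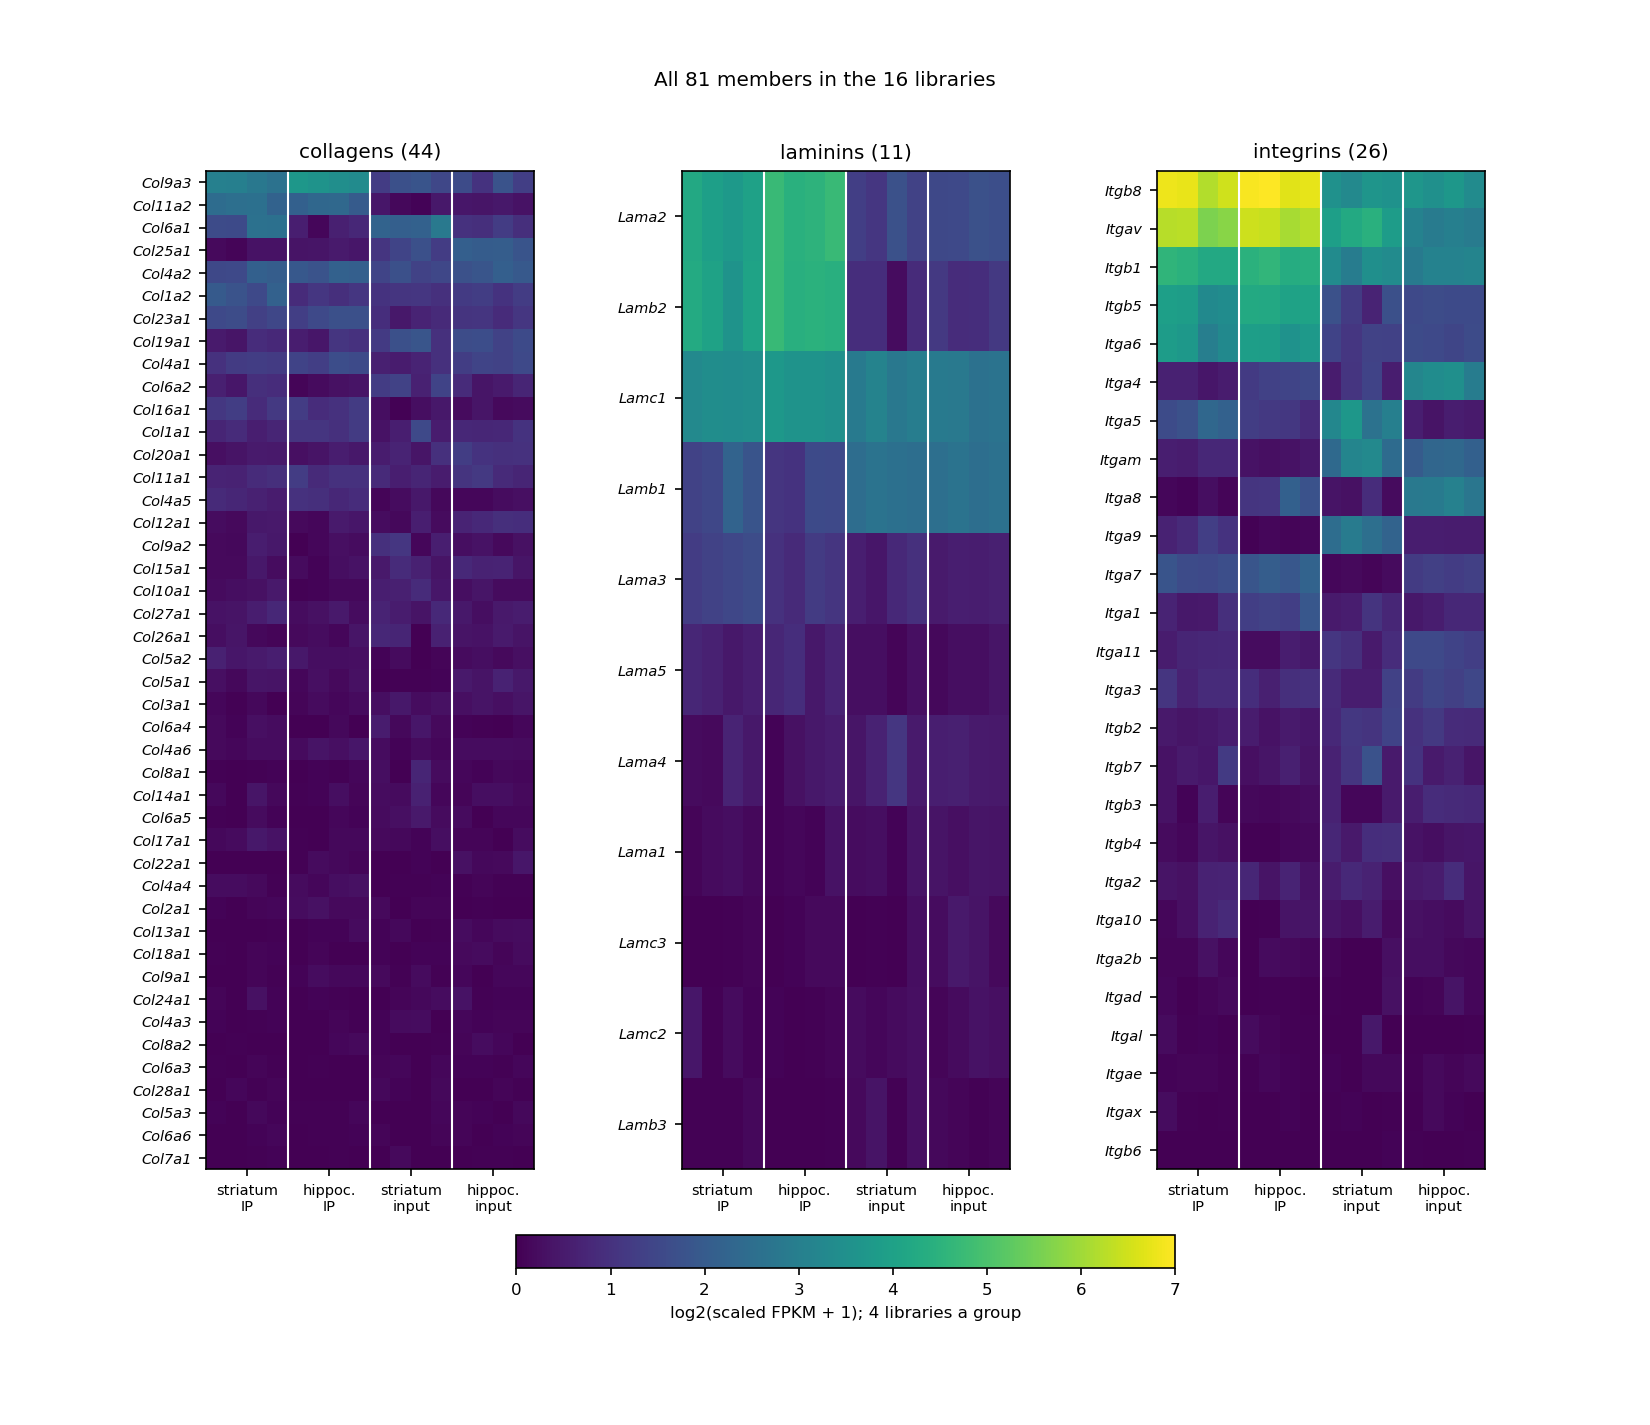
Level of each of the 81 collagen, laminin and integrin genes in the 16 libraries, as log2(scaled FPKM + 1) in colour, with columns grouped as striatal IP, hippocampal IP, striatal input and hippocampal input (4 libraries each) and genes of each family ordered by their highest group mean. Itgb8 and Itgav are the brightest rows, and most collagens are dark in every group.

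The first comparison asked which of these RNAs were over-represented on astrocyte ribosomes. In the striatum, 16 of the 32 were higher in IP than in input (32.1% of all 13470 genes tested were higher), 7 were lower (33.1% of all genes) and 9 did not pass the test. The median log2 fold change was 0.39 over the 32 and -0.03 over all genes. In the hippocampus, 16 were higher (28.6% of all genes), 11 were lower (37.1% of all genes) and 5 did not pass, with a median of 0.28 over the 32 and -0.15 over all genes. These medians hold for the 32 and not for the families as a whole. As whole fragments (described with the type IV collagens), 68 of the 81 could be tested. Of these, 21 were higher (29.4% of all genes tested so) and 14 lower (32.2%) in striatal IP, and 20 were higher (28.2%) and 26 lower (39.5%) in hippocampal IP. Their median was -0.47 in the striatum (-0.08 over all genes tested so) and -0.84 in the hippocampus (-0.26 over all genes). The sign of the median was thus opposite to that of the 32, whose own medians as fragments were 0.46 in the striatum and 0.52 in the hippocampus. In both regions 14 genes were higher and 6 lower. The share of all genes called alike in both regions is not given here, so these counts only describe the 32. By family, striatal IP had 6 collagens higher and 2 lower of 11, 4 laminins higher and 1 lower of 5, and 6 integrins higher and 4 lower of 16. Hippocampal IP had 4 collagens higher and 3 lower, 4 laminins higher and 1 lower, and 8 integrins higher and 7 lower. Libraries were scaled so that the middle of the expressed genes was level. Without scaling the median of all genes moved to -0.25 in the striatum and -0.51 in the hippocampus, and the share of calls over all genes that were higher in IP was 36.1% in the striatum, against 49.3% with scaling, and 26% in the hippocampus, against 43.6%. The test was limma on log2(scaled FPKM + 1), two-sided, with Benjamini-Hochberg adjustment over all genes and calls at adjusted p under 0.05. On this scale, changes of genes near or below 1 FPKM are understated.

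**Figure D2:**
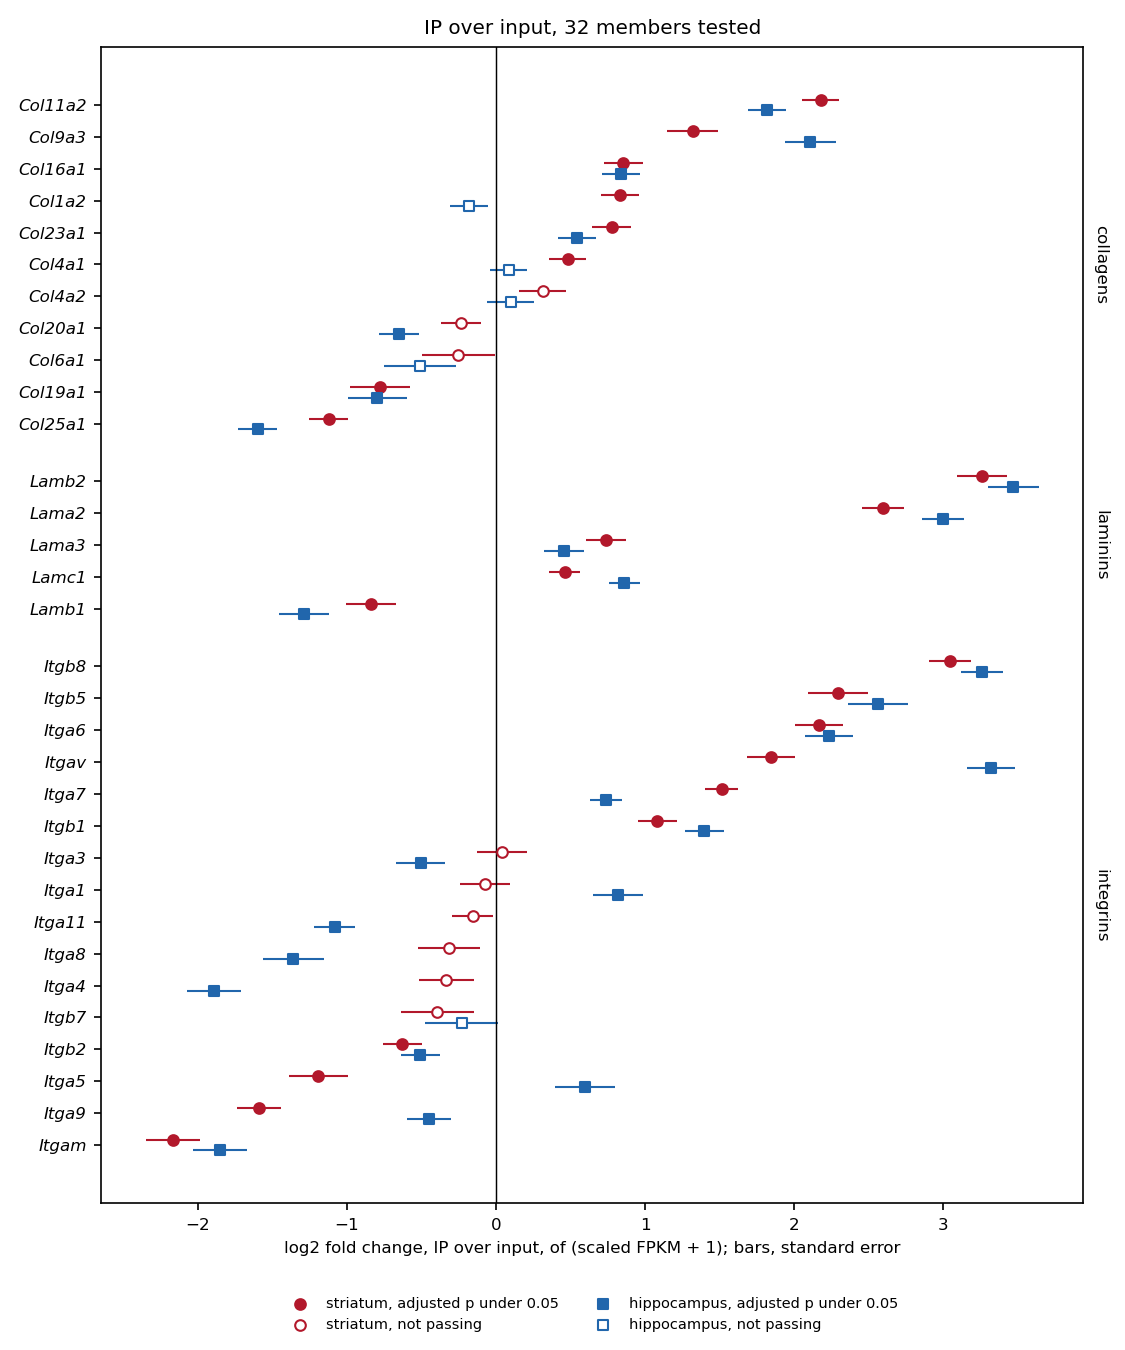
Log2 fold change of IP over input (horizontal axis, on the log2(scaled FPKM + 1) scale, bars ± SE) for the 32 genes tested, with the striatum as circles and the hippocampus as squares, filled where adjusted p was under 0.05. Lamb2, Lama2, Itgb8 and Itgb5 lie above 2 in both regions, Itgav lies at 1.84 in the striatum and 3.32 in the hippocampus, and the 2 points of Itga5 lie on opposite sides of 0.

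Of the laminin chains, the genes for α2, α3, β2 and γ1 were higher in IP in both regions, and that for β1 was lower. Lama2 encodes the α2 chain, a binding partner of dystroglycan at astrocyte endfeet. It had 17.7, 14.6, 12.4 and 15.0 in striatal IPs, against 1.48, 1.17, 2.36 and 1.59 in striatal inputs. Its levels in hippocampal IPs were 25.9, 20.6, 22.2 and 25.8, against 1.84, 1.92, 2.33 and 2.19 in hippocampal inputs. Every IP library lay above every input library. The log2 fold changes were 2.60 ± 0.14 in the striatum (adjusted p = 2.21e-10) and 3.00 ± 0.14 in the hippocampus (adjusted p = 3.57e-11).

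Lamb2 encodes the β2 chain. It had 18.4, 15.5, 10.98 and 15.6 in striatal IPs, against 0.878, 0.875, 0.181 and 0.823 in striatal inputs. Hippocampal IPs gave 25.2, 20.5, 21.2 and 20.2, against 1.24, 0.851, 0.897 and 1.24 in hippocampal inputs. These were the largest IP over input changes of the 32 genes in each region, at 3.26 ± 0.17 in the striatum (adjusted p = 1.54e-10) and 3.47 ± 0.17 in the hippocampus (adjusted p = 5e-11). The ratio of group means was 21.9 in the striatum and 20.6 in the hippocampus. The lowest striatal input, that of animal 974, rested on 4 fragments, against 40, 30 and 53 in the other striatal inputs.

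Lamb1, the gene of the alternative β1 chain, went the other way. Its levels were 1.62, 1.83, 3.66 and 2.55 in striatal IPs, against 4.63, 5.40, 4.97 and 4.82 in striatal inputs. They were 1.13, 1.03, 1.98 and 1.91 in hippocampal IPs, against 4.94, 5.35, 4.79 and 5.09 in hippocampal inputs. All IPs lay below all inputs, and the change was -0.84 ± 0.17 in the striatum (adjusted p = 4.03e-04) and -1.29 ± 0.17 in the hippocampus (adjusted p = 4.72e-06). Within the IPs of each region, animals 974 and 977 had more Lamb1 than animals 970 and 971. The summed level of the 9 neuronal markers was 104.8, 118.9, 159.7 and 166.5 in striatal IPs and 136, 122.9, 196 and 155.6 in hippocampal IPs. That of the 14 endothelial markers was 3.504, 4.653, 7.464 and 7.369 in striatal IPs and 3.338, 4.204, 5.663 and 4.929 in hippocampal IPs. Both were higher in animals 974 and 977 in each region, and so were the oligodendrocyte and oligodendrocyte precursor sums. For oligodendrocytes the hippocampal split was slight, with 89.84 in animal 977 against 89.7 in animal 970. The microglial and leptomeningeal fibroblast sums had this split in striatal IPs alone. The mural sum and the ependymal and choroid plexus sum had it in hippocampal IPs alone. The part of all these cell types in the Lamb1 values was not tested.

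Lamc1, which encodes the γ1 chain found in most laminins, averaged 9.56 ± 0.527 in striatal IPs, against 6.70 ± 0.821 in striatal inputs, and 11.2 ± 0.694 in hippocampal IPs, against 5.73 ± 0.572 in hippocampal inputs. The groups did not overlap in either region, and the change was 0.46 ± 0.10 in the striatum (adjusted p = 9.24e-04) and 0.86 ± 0.10 in the hippocampus (adjusted p = 1.5e-06). Without scaling of the libraries, the striatal change was 0.20 and did not pass (adjusted p = 0.171). Lama3, the gene of the epithelial α3 chain, averaged 1.71 ± 0.302 in striatal IPs, against 0.636 ± 0.270 in striatal inputs, and 1.06 ± 0.232 in hippocampal IPs, against 0.488 ± 0.0550 in hippocampal inputs. Its changes were 0.74 ± 0.13 (adjusted p = 1.48e-04) and 0.46 ± 0.13 (adjusted p = 0.00648), and the hippocampal one did not pass without scaling (adjusted p = 0.157).

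Among fibril-forming and fibril-associated collagens, Col11a2, Col9a3 and Col16a1 were higher in IP in both regions and Col19a1 was lower. Col11a2 encodes a chain of type XI collagen, known from cartilage. It had 4.58, 4.88, 4.95 and 3.58 in striatal IPs, against 0.332, 0.118, 0.0456 and 0.376 in striatal inputs. Hippocampal IPs had 3.47, 4.04, 4.11 and 3.02, against 0.336, 0.306, 0.369 and 0.260 in hippocampal inputs. No IP came near an input, and the changes were 2.18 ± 0.13 (adjusted p = 4.56e-10) in the striatum and 1.82 ± 0.13 (adjusted p = 2.65e-09) in the hippocampus.

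Col9a3, a chain of type IX collagen, which decorates type II fibrils in cartilage, had the highest level of all 44 collagens. It had 7.20, 7.14, 6.01 and 5.21 in striatal IPs, against 1.35, 2.26, 2.52 and 1.79 in striatal inputs. Its hippocampal IPs had 12.1, 11.1, 10.1 and 9.33, against 2.02, 1.03, 2.48 and 1.46 in hippocampal inputs. All IPs lay above all inputs, with changes of 1.32 ± 0.17 (adjusted p = 4.31e-06) and 2.11 ± 0.17 (adjusted p = 1.48e-08). Of its exon bases, 6.07% are shared with Tcfl5 on the opposite strand. The partner chains of type IX collagen were far lower, with a highest group mean of 0.674 ± 0.469 for Col9a2 in striatal inputs and 0.108 ± 0.0551 for Col9a1 in hippocampal IPs.

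Col16a1, another fibril-associated collagen, averaged 1.16 ± 0.251 in striatal IPs, against 0.194 ± 0.132 in striatal inputs (log2 fold change 0.85 ± 0.13, adjusted p = 2.07e-05). It averaged 1.13 ± 0.243 in hippocampal IPs, against 0.187 ± 0.0857 in hippocampal inputs (log2 fold change 0.84 ± 0.13, adjusted p = 2.33e-05). Col19a1, a fibril-associated collagen made by some neurons, averaged 0.583 ± 0.254 in striatal IPs, against 1.77 ± 0.790 in striatal inputs (log2 fold change -0.78 ± 0.20, adjusted p = 0.00292). In hippocampal IPs it averaged 0.730 ± 0.378, against 1.95 ± 0.248 in hippocampal inputs (log2 fold change -0.79 ± 0.20, adjusted p = 0.00237). Col20a1, of the same class, fell in hippocampal IP, with 0.337 ± 0.103 there, against 1.10 ± 0.206 in hippocampal inputs (log2 fold change -0.65 ± 0.13, adjusted p = 4.02e-04), and did not pass in the striatum (log2 fold change -0.23 ± 0.13, adjusted p = 0.132). The striatal call of Col19a1 was lost without the 2 shallowest striatal inputs, 971 and 974 (adjusted p = 0.0711).

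The 2 transmembrane collagens tested moved in opposite directions. Col25a1, which is made by neurons, had 0.126, 0.0707, 0.279 and 0.270 in striatal IPs, against 1.13, 1.70, 2.25 and 1.35 in striatal inputs. The hippocampal IPs had 0.286, 0.319, 0.419 and 0.350, against 3.38, 3.13, 3.22 and 2.56 in hippocampal inputs. Each IP lay below each input of its region (in the striatum log2 fold change -1.12 ± 0.13, adjusted p = 1.43e-06, in the hippocampus log2 fold change -1.60 ± 0.13, adjusted p = 1.85e-08). Col23a1 averaged 1.84 ± 0.243 in striatal IPs, against 0.665 ± 0.217 in striatal inputs (log2 fold change 0.78 ± 0.13, adjusted p = 6.38e-05), and 1.98 ± 0.368 in hippocampal IPs, against 1.04 ± 0.160 in hippocampal inputs (log2 fold change 0.54 ± 0.13, adjusted p = 0.00149). The hippocampal call of Col23a1 was lost without scaling (adjusted p = 0.124).

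Type IV collagen, the network former of basement membranes, is encoded in the mouse genome (GRCm38) by 3 head-to-head gene pairs. Col4a1 and Col4a2, the vessel-wall pair, have starts that overlap by 22 bases on chromosome 8. Col4a2 averaged 2.60 ± 0.830 in striatal IPs, 3.05 ± 0.497 in hippocampal IPs, 1.85 ± 0.301 in striatal inputs and 2.78 ± 0.420 in hippocampal inputs. Neither of its IP over input changes passed (0.32 ± 0.16, adjusted p = 0.0899, in the striatum and 0.10 ± 0.16, adjusted p = 0.596, in the hippocampus), but the striatal one did without animal 971 (adjusted p = 0.0437) and without striatal IP 970 (0.037) or 971 (0.0408) alone. Col4a1 rose in striatal IP, with 1.009, 1.32, 1.43 and 1.33 there, against 0.523, 0.447, 0.616 and 0.953 in striatal inputs (log2 fold change 0.48 ± 0.12, adjusted p = 0.00281). In the hippocampus it had 1.66, 1.47, 2.16 and 1.96 in IPs, against 1.41, 1.70, 1.59 and 1.90 in inputs, which overlapped (log2 fold change 0.08 ± 0.12, adjusted p = 0.562). The striatal call of Col4a1 did not pass without scaling (adjusted p = 0.0547). Vascular cells are the known source of this pair, and the summed level of the 11 mural markers was 23.73, 24.64, 22.56 and 24.84 in striatal IPs, against 39.59, 64.66, 55.65 and 30.24 in striatal inputs. Of the 7 mural markers tested singly, 2 were higher and 3 lower in striatal IP, so this sum does not stand for each marker. The sum of the 14 endothelial markers was 3.504, 4.653, 7.464 and 7.369 in striatal IPs, against 39.86, 39.98, 44.14 and 34.87 in striatal inputs. The part of these cells in the Col4a1 values was not tested.

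The other 2 type IV pairs were under the filter and were read as whole fragments, recovered from the FPKM steps and tested with limma-voom on 14815 genes that had at least 10 fragments in at least 4 libraries. Col4a5 rose in IP, with 173, 157, 102 and 85 fragments in striatal IPs, against 8, 13, 18 and 17 in striatal inputs (log2 fold change 2.13 ± 0.40, adjusted p = 1.22e-04). Hippocampal IPs had 213, 207, 154 and 189 fragments, against 12, 15, 24 and 39 in hippocampal inputs (log2 fold change 2.68 ± 0.35, adjusted p = 1.42e-06). Its partner Col4a6, whose start lies 1308 bases away, did not pass (0.26, adjusted p = 0.664, and 0.46, adjusted p = 0.282). Col4a4 rose, with 22, 23, 16 and 3 fragments in striatal IPs, against 0, 1, 1 and 4 in striatal inputs (log2 fold change 1.95 ± 0.79, adjusted p = 0.0387), and 19, 13, 25 and 34 in hippocampal IPs, against 3, 6, 2 and 3 in hippocampal inputs (log2 fold change 2.05 ± 0.66, adjusted p = 0.00993). Col4a3 was too low to test, with 1 to 11 fragments in every library. The difference between the partners of a pair was not itself tested, and raw fragments also follow depth, which was higher in the IPs.

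The starts of Col4a3 and Col4a4 are 71 bases apart, at chr1:82586850-82586920 of GRCm38. This stretch lies upstream of both genes and is shown because Col4a4 fragments rose in IP while Col4a3 was too low to test. It overlaps no GENCODE exon and is given on the plus strand, the strand of Col4a3, from the RefSeq-based table of GRCm38.p6.
Col4a3 and Col4a4: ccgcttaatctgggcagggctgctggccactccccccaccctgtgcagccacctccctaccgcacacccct
Its G and C content was 69%. On either strand it held no match to the GC box GGGCGG, the box CCAAT, the box TATAAA or the site TTGGC, so no capitals are shown. In the 250 bases before the start of 32851 mouse promoters, windows longer than this one, 32.7% held GGGCGG, 33.8% held CCAAT, 12.4% held TATAAA and 41.5% held TTGGC. The last of these and the reverse of CCAAT share 4 letters and can overlap.

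Itgb8 and Itgav had the highest scaled FPKM of the 81 genes, and with Itgb5 and Itgb1 they were higher in IP than in input in both regions. Itgb8 encodes β8, which pairs with αv only and, in astrocytes, activates latent TGF-β. The gene lies on the minus strand at chr12:119158022-119238802 (GRCm38). Striatal IPs had 112, 108, 71.8 and 88.4, against 10.7, 8.73, 11.7 and 10.9 in striatal inputs. Hippocampal IPs had 120.5, 125, 103 and 105, against 11.9, 10.5, 12.1 and 9.37 in hippocampal inputs. Every IP was above every input, by 3.05 ± 0.14 on the log2 scale in the striatum (adjusted p = 5.96e-11) and 3.26 ± 0.14 in the hippocampus (adjusted p = 1.89e-11). Per kilobase, levels of different genes rest on the gene lengths used by the authors. For Itgb8 that length was 0.28 of its GENCODE exon length, the lowest of the 81, so its rank against other genes depends on it and its fold changes do not.

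Itgav encodes αv itself and lies on the plus strand at chr2:83724397-83806916. It had 74.5, 76.2, 48.3 and 52.9 in striatal IPs, against 14.5, 18.0, 20.7 and 13.7 in striatal inputs. In hippocampal IPs it had 88.1, 84.8, 66.5 and 74.8, against 7.67, 6.48, 7.06 and 6.57 in hippocampal inputs. All IPs lay above all inputs (in the striatum log2 fold change 1.84 ± 0.16, adjusted p = 4.62e-08, in the hippocampus log2 fold change 3.32 ± 0.16, adjusted p = 4.94e-11). The enrichment differed between regions by -1.48 ± 0.23, striatum minus hippocampus (adjusted p = 3.41e-04). The inputs differed as well, with all striatal inputs above all hippocampal inputs (log2 fold change 1.14 ± 0.16, adjusted p = 3.83e-05), while the change between the IPs did not pass (log2 fold change -0.33 ± 0.16, adjusted p = 0.218).

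Itgb5, whose product pairs with αv as a vitronectin receptor, had 14.4, 13.8, 9.03 and 9.56 in striatal IPs, against 2.36, 1.33, 0.622 and 2.27 in striatal inputs. Its hippocampal IPs had 18.1, 17.8, 15.3 and 15.6, against 1.94, 2.08, 1.96 and 1.96 in hippocampal inputs. IPs and inputs did not overlap (in the striatum log2 fold change 2.30 ± 0.20, adjusted p = 4.59e-08, in the hippocampus log2 fold change 2.56 ± 0.20, adjusted p = 1.02e-08). The remaining αv partners were low. Itgb3 averaged 0.213 ± 0.198 in striatal IPs, 0.125 ± 0.0418 in hippocampal IPs, 0.298 ± 0.254 in striatal inputs and 0.719 ± 0.173 in hippocampal inputs. As fragments it fell in hippocampal IP (log2 fold change -2.50 ± 0.57, adjusted p = 6.84e-04) and did not pass in striatal IP (log2 fold change -0.91 ± 0.71, adjusted p = 0.275). Itgb6 had 0 fragments in 12 libraries and at most 5 in the others.

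Itgb1 encodes β1, the subunit shared by most laminin, collagen and fibronectin receptors and also able to pair with αv. It had 22.9, 21.3, 17.8 and 17.6 in striatal IPs, against 9.40, 6.68, 10.2 and 9.40 in striatal inputs. Hippocampal IPs held 21.0, 23.5, 19.1 and 20.1, against 6.20, 7.53, 7.67 and 7.92 in hippocampal inputs. IPs and inputs did not overlap (in the striatum log2 fold change 1.08 ± 0.13, adjusted p = 2.15e-06, in the hippocampus log2 fold change 1.40 ± 0.13, adjusted p = 9.05e-08).

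The upstream sequences of Itgav and of its partners Itgb5 and Itgb1 are shown because these 3 subunits can form αv pairs and were all higher in IP in both regions. Each is the 250 bases before the RefSeq start in GRCm38.p6, on the gene's strand, which is the plus strand for all 3, and overlaps no GENCODE exon. They lie at chr2:83724147-83724396 for Itgav, chr16:33829415-33829664 for Itgb5 and chr8:128685404-128685653 for Itgb1. Capitals mark GGGCGG, the core of a GC box, or its reverse complement.
Itgav: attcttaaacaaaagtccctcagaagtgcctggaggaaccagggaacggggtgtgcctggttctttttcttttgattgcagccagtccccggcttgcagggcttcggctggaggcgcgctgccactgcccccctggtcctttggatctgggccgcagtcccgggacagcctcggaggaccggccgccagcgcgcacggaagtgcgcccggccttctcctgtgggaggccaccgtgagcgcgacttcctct
Itgb5: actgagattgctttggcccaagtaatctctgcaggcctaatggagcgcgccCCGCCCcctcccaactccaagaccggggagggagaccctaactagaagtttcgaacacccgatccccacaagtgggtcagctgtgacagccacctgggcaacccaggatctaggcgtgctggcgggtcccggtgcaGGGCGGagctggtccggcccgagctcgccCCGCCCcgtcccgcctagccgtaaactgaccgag
Itgb1: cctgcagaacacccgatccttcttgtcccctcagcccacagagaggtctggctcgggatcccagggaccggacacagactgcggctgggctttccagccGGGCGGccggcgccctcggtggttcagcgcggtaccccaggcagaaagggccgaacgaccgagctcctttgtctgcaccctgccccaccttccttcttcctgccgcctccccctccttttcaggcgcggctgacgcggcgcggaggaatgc
The G and C content was 64.4% for Itgav, 65.2% for Itgb5 and 68% for Itgb1. Itgb5 held 3 matches to GGGCGG and 1 to TTGGC, Itgb1 held 1 match to GGGCGG, and Itgav held none of the 4 motifs searched. A match describes letters in this window and no more. Of the 81 genes, 58 matched the promoter table. Itgb8, which also matched, is not shown because its window overlaps annotated exons.

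Of the laminin-binding subunits, Itga6 and Itga7 were higher in IP in both regions. Itga6 encodes α6. It had 13.49, 12.3, 6.95 and 9.04 in striatal IPs, against 1.64, 1.16, 1.60 and 1.57 in striatal inputs. Its levels in hippocampal IPs were 14.1, 13.8, 10.9 and 12.5, against 2.03, 1.94, 1.73 and 2.04 in hippocampal inputs. All IPs were above all inputs (in the striatum log2 fold change 2.1659 ± 0.16, adjusted p = 6.61e-09, in the hippocampus log2 fold change 2.23 ± 0.16, adjusted p = 3.7e-09). Itga3, which encodes α3, averaged 0.837 ± 0.215 in striatal IPs, against 0.824 ± 0.516 in striatal inputs (log2 fold change 0.04 ± 0.17, adjusted p = 0.841). It fell in the hippocampus, with 0.831 ± 0.205 in IPs, against 1.59 ± 0.213 in inputs (log2 fold change -0.50 ± 0.17, adjusted p = 0.0134). That call was lost without animal 971 (adjusted p = 0.091) and without hippocampal IP 971 alone (adjusted p = 0.0503). Itgb4, the partner of α6 in epithelia and vessels, was tested as fragments and fell in both regions (in the striatum log2 fold change -2.02 ± 0.38, adjusted p = 1.33e-04, in the hippocampus log2 fold change -2.39 ± 0.52, adjusted p = 5.03e-04).

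**Figure D3:**
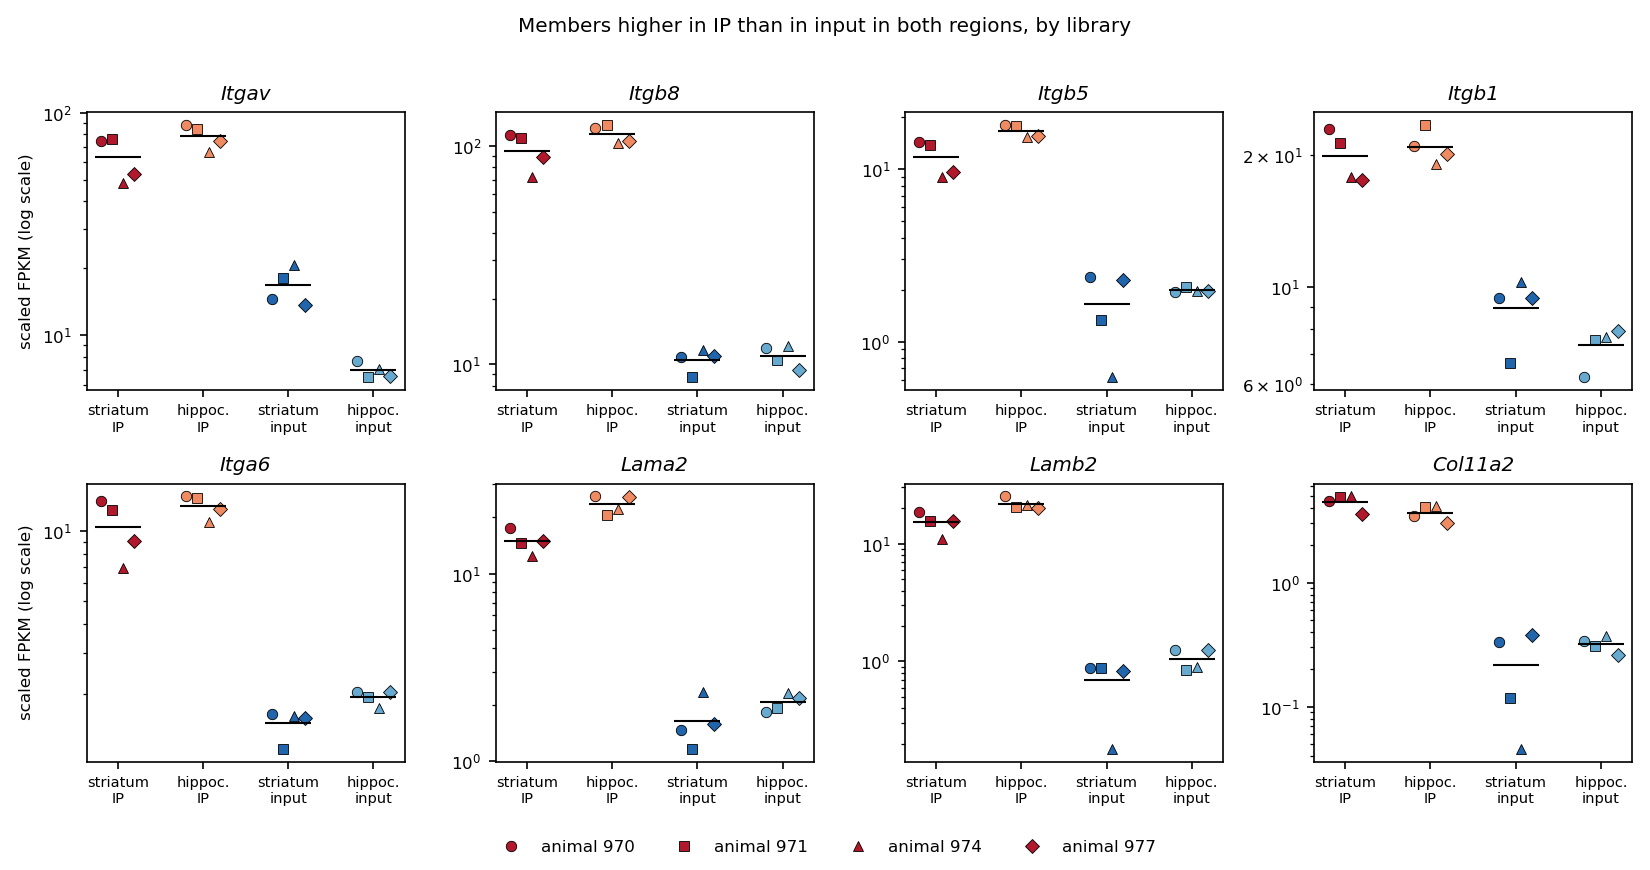
Scaled FPKM on a log axis of 8 genes higher in IP in both regions, with striatal IP, hippocampal IP, striatal input and hippocampal input from left to right; symbols are the 4 animals and horizontal bars the means. In every panel each IP lies above each input, and in striatal IPs the values of Itgav, Itgb8, Itgb5, Itgb1 and Itga6 from animals 974 and 977 lie below those from 970 and 971.

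Within the striatal IPs, animals 974 and 977 had lower values of Itgav, Itgb8, Itgb5, Itgb1 and Itga6 than animals 970 and 971, and the hippocampal IPs of these 5 genes had the same split, except that Itgb1 of animal 970 lay close to that of 977. The summed level of the 13 astrocyte markers was 11520, 12420, 7160 and 8362 in striatal IPs and 14670, 14150, 11030 and 12080 in hippocampal IPs, also lower in 974 and 977. Its part in these gene values was not tested. Lama2 and Col11a2 did not follow the split, since animal 977 was at or near the top for Lama2 in the hippocampus and animal 974 was the highest for Col11a2 in both regions.

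Of the 3 leukocyte integrins tested, Itgam and Itgb2 fell in both regions. Itgam, which encodes CD11b and is made by microglia in the brain, had 0.504, 0.434, 0.732 and 0.718 in striatal IPs, against 4.26, 8.10, 8.89 and 4.50 in striatal inputs. Hippocampal IPs gave 0.264, 0.221, 0.278 and 0.362, against 3.04, 3.94, 4.14 and 3.45 in hippocampal inputs. The groups stood well apart (in the striatum log2 fold change -2.1663 ± 0.18, adjusted p = 2.68e-08, in the hippocampus log2 fold change -1.85 ± 0.18, adjusted p = 1.41e-07). Its partner Itgb2 fell by 0.63 on the log2 scale in the striatum (adjusted p = 5.41e-04) and by 0.51 in the hippocampus (adjusted p = 0.00288). Itgb7 did not pass in either region. The summed level of the 14 microglial markers ran from 29.69 to 39.74 in striatal IPs and from 27.28 to 32.6 in hippocampal IPs, against 170.4 to 195 in striatal inputs and 124.5 to 142 in hippocampal inputs. Of the GENCODE exon bases of Itgam, 68.7% are shared with Gm49368 on the same strand. Reads within the shared bases cannot be assigned by position alone, and how the authors' counting treated them is not known here.

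A set of α subunits differed between the regions in the precipitation. Itga5, which encodes α5 of the fibronectin receptor, had 2.04, 2.34, 4.03 and 3.51 in striatal IPs, against 8.52, 11.9, 5.19 and 7.19 in striatal inputs, and fell there (log2 fold change -1.19 ± 0.20, adjusted p = 7.15e-05). The hippocampal IPs had 1.40, 1.24, 1.19 and 0.817, against 0.508, 0.298, 0.471 and 0.427 in hippocampal inputs, and rose there (log2 fold change 0.60 ± 0.20, adjusted p = 0.0154). IPs and inputs did not overlap in either region, in opposite directions, and the difference of -1.79 ± 0.28 between regions passed the test (adjusted p = 4.39e-04). The hippocampal rise rested on low values and was lost without animal 970 (adjusted p = 0.0648), without animal 971 (adjusted p = 0.051), without scaling (adjusted p = 0.152) and with a pseudocount of 5 (adjusted p = 0.176). As fragments it passed (log2 fold change 1.43 ± 0.44, adjusted p = 0.00714).

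Itga4, the α4 subunit that binds fibronectin and the vascular adhesion protein VCAM1, had 0.574, 0.572, 0.330 and 0.449 in striatal IPs, against 0.438, 1.11, 1.68 and 0.469 in striatal inputs, and did not pass there (log2 fold change -0.33 ± 0.18, adjusted p = 0.122), though it did without scaling (0.0379) or without striatal input 970 (0.0404) or 977 (0.0456). It fell in the hippocampus, where IPs had 1.29, 1.54, 1.72 and 1.88, against 8.32, 9.64, 10.2 and 6.68 in inputs (log2 fold change -1.89 ± 0.18, adjusted p = 1.27e-07). The regions differed by 1.56 ± 0.26 (adjusted p = 6.41e-04). The hippocampal inputs stood above all other libraries. Of its exon bases, 8.04% are shared with Cerkl on the opposite strand.

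Itga8, which encodes the nephronectin receptor subunit α8, had 1.12, 1.15, 3.40 and 2.39 in hippocampal IPs, against 6.08, 6.33, 7.41 and 5.70 in hippocampal inputs (log2 fold change -1.36 ± 0.21, adjusted p = 2.39e-05). Within the striatum it was near the floor, with 0.0815, 0.0390, 0.191 and 0.0718 in IPs, against 0.299, 0.255, 0.835 and 0.151 in inputs (log2 fold change -0.32 ± 0.21, adjusted p = 0.192, and adjusted p = 0.0193 with a pseudocount of 0.1). Itga9, whose product α9 binds tenascin and other matrix proteins, had its higher levels in the striatum. It had 0.589, 0.790, 1.46 and 1.04 in striatal IPs, against 4.67, 6.46, 4.89 and 3.66 in striatal inputs (log2 fold change -1.59 ± 0.15, adjusted p = 9.03e-08). In hippocampal IPs it had 0.0289, 0.0824, 0.0774 and 0.0957, against 0.474, 0.465, 0.452 and 0.452 in hippocampal inputs (log2 fold change -0.45 ± 0.15, adjusted p = 0.0133). The hippocampal call of Itga9 was lost without animal 970 (adjusted p = 0.062) and with a pseudocount of 5 (adjusted p = 0.166). Within the striatal IPs, Itga5 and Itga9 were higher in animals 974 and 977 than in 970 and 971, and so was Itga8 within the hippocampal IPs. The neuronal, endothelial, oligodendrocyte and oligodendrocyte precursor sums had the same split in both regions, and other sums had it in striatal or hippocampal IPs alone, as given with Lamb1. The part of these cell types in these values was not tested.

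For both Itga8 and Itga9, the region difference of the IP over input change passed on the log2(scaled FPKM + 1) scale (1.04 ± 0.29, adjusted p = 0.026, and -1.14 ± 0.21, adjusted p = 0.0014) and not as fragments (0.09, adjusted p = 0.965, and 0.39, adjusted p = 0.712, which turned its direction). A pseudocount of 0.1 ended both calls as well (adjusted p = 0.542 for Itga8 and 0.385 for Itga9). As fragments the log2 fold changes of IP over input were -1.73 in the striatum and -1.82 in the hippocampus for Itga8, and -2.39 in the striatum and -2.78 in the hippocampus for Itga9. The Itga8 difference was also lost without animal 970 (adjusted p = 0.161), 971 (0.214) or 977 (0.0827), and without striatal IP 974, hippocampal IP 970 or 971, striatal input 971 or hippocampal input 974 (adjusted p of 0.0524 to 0.0619).

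Of the collagen-binding subunits, Itga1 rose in hippocampal IP, with 1.44, 1.61, 1.46 and 2.71 in IPs, against 0.370, 0.488, 0.702 and 0.726 in inputs (log2 fold change 0.82 ± 0.17, adjusted p = 4.09e-04). Within the striatum it had 0.610, 0.367, 0.393 and 0.913 in IPs, against 0.412, 0.466, 1.06 and 0.686 in inputs, which overlapped (log2 fold change -0.07 ± 0.17, adjusted p = 0.717). Itga11 fell in hippocampal IP, with 0.167, 0.181, 0.467 and 0.367 in IPs, against 1.92, 1.89, 1.67 and 1.47 in inputs (log2 fold change -1.08 ± 0.14, adjusted p = 2.98e-06). Within the striatum its groups overlapped, with a mean of 0.638 ± 0.138 in IPs and 0.840 ± 0.310 in inputs (log2 fold change -0.16 ± 0.14, adjusted p = 0.333). The region difference was -0.89 ± 0.24 for Itga1 (adjusted p = 0.0183), a call that animals 970 (adjusted p = 0.075 without it) and 971 (0.139) each carried, and 0.93 ± 0.19 for Itga11 (adjusted p = 0.00399), lost without animal 971 (adjusted p = 0.0802).

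In all, the change of IP over input differed between regions for 5 of the 32 genes in the positive direction, striatum minus hippocampus (8.77% of all genes), and for 5 in the negative direction (5.37% of all genes). The positive ones were Itga4, Itga8, Itga11, Itga7 and Col1a2, and the negative ones Itgav, Itga5, Itga9, Itga1 and Col9a3. Itga7, which encodes α7, had 2.55, 2.02, 1.89 and 2.20 in striatal IPs, against 0.0921, 0.123, 0.0633 and 0.152 in striatal inputs, where 1 to 7 fragments were counted per library. Its levels in hippocampal IPs were 2.60, 3.16, 2.73 and 3.68, against 1.31, 1.49, 1.35 and 1.49 in hippocampal inputs. It rose in both regions (in the striatum log2 fold change 1.51 ± 0.11, adjusted p = 4.67e-09, in the hippocampus log2 fold change 0.74 ± 0.11, adjusted p = 1.59e-05), with a region difference of 0.78 ± 0.15 (adjusted p = 0.00269) that was lost without animal 970 (adjusted p = 0.0553) and with a pseudocount of 5 (0.16, adjusted p = 0.099), and held as fragments (log2 fold change 2.99 ± 0.47, adjusted p = 2.98e-04). The Col9a3 difference (log2 fold change -0.79 ± 0.24, adjusted p = 0.0386) was lost without any 1 of the 4 animals (adjusted p of 0.0602 to 0.244) and in 9 of the 16 fits that left out 1 library (adjusted p of 0.052 to 0.0846), those without striatal IP 974 or 977, hippocampal IP 970, 971 or 974, striatal input 971 or 974, or hippocampal input 971 or 977. It was lost as fragments too (adjusted p = 0.113), and with no filter (0.0522), no scaling (0.0687) or a pseudocount of 0.1 (0.0908).

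The second comparison set the IPs of the regions against each other. Of the 32 genes, 4 were higher in striatal IP (7.24% of all genes) and 6 were lower (4.94% of all genes). The higher ones were Col6a1, Col1a2, Itga5 and Itga9, and the lower ones Itga8, Itga4, Itga1, Lama2, Col9a3 and Itga7. These values share libraries with the comparisons above. Cell type markers differed between the IPs as well. Of the 13 astrocyte markers, 6 were lower in striatal IP, among them Gfap (log2 fold change -2.47 ± 0.22), Sox9, Slc1a3 (-0.59 ± 0.16), Gja1 (-0.75 ± 0.17), Gjb6 (-0.80 ± 0.16) and Aqp4 (-1.06 ± 0.24). The other 7 did not pass, among them Aldh1l1 (-0.07 ± 0.19, adjusted p = 0.881). The astrocyte marker sums given above were lower in each animal's striatal IP than in its hippocampal IP. Of the 11 oligodendrocyte markers, 7 were higher in striatal IP, with sums of 95.31, 93.05, 121.1 and 146.4 in striatal IPs and 89.7, 85.5, 92.67 and 89.84 in hippocampal IPs. Of 9 leptomeningeal fibroblast markers tested, 2 were lower, 1 of 5 ependymal and choroid plexus markers was lower and 1 of 7 mural markers was higher. The part of these cells in the differences between the IPs was not tested.

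Col6a1, a chain of the beaded filaments of type VI collagen, had 2.01, 1.99, 5.17 and 4.94 in striatal IPs, against 0.489, 0.0987, 0.536 and 0.722 in hippocampal IPs (log2 fold change 1.56 ± 0.24, adjusted p = 3.30e-04). The groups did not overlap, and within the striatal IPs animals 974 and 977 were higher than 970 and 971. The neuronal, endothelial, oligodendrocyte, oligodendrocyte precursor, microglial and leptomeningeal fibroblast sums had this split there, and their part was not tested. The inputs differed in the same direction, with 3.71, 3.35, 3.53 and 6.15 in striatal inputs, against 0.989, 0.921, 1.39 and 0.940 in hippocampal inputs (log2 fold change 1.31 ± 0.24, adjusted p = 5.46e-04). IP over input did not pass in the striatum (log2 fold change -0.25 ± 0.24, adjusted p = 0.376) or in the hippocampus (log2 fold change -0.51 ± 0.24, adjusted p = 0.0763), and the hippocampal fall passed with the animal as a block (adjusted p = 0.0303), without scaling (0.04), with a pseudocount of 0.1 (0.0182), in a fit of those groups alone (0.00977) and as fragments (adjusted p = 0.0376). Col6a2 and Col6a4, other type VI chains under the filter, were also higher in striatal than in hippocampal IP as fragments (log2 fold change 1.82 ± 0.52, adjusted p = 0.0191 and log2 fold change 3.81 ± 0.94, adjusted p = 0.0072). For Col6a4, 3 of the 4 hippocampal IPs had 0 fragments.

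Col1a2, a chain of type I collagen, had 2.98, 2.47, 1.93 and 3.501 in striatal IPs, against 0.815, 1.14, 0.934 and 1.17 in hippocampal IPs (log2 fold change 0.87 ± 0.13, adjusted p = 2.09e-04). Striatal inputs had 1.04, 1.12, 1.14 and 0.955, against 1.30, 1.43, 1.04 and 1.36 in hippocampal inputs, which did not differ by the test (log2 fold change -0.14 ± 0.13, adjusted p = 0.401). Only the striatal IPs stood above the other 3 groups, with the striatal IP over input change at 0.83 ± 0.13 (adjusted p = 2.94e-05) and the hippocampal one at -0.18 ± 0.13 (adjusted p = 0.229, and 0.00565 without scaling). The region difference was 1.0131 ± 0.18 (adjusted p = 0.00123). Its partner chain Col1a1 did not follow, with 0.665 ± 0.135 in striatal IPs, 1.13 ± 0.140 in hippocampal IPs, 0.777 ± 0.758 in striatal inputs and 0.789 ± 0.174 in hippocampal inputs. As fragments Col1a1 did not pass between the IPs (log2 fold change -0.76 ± 0.28, adjusted p = 0.075), with a sign opposite to that of Col1a2. The summed level of the 14 leptomeningeal fibroblast markers, a cell type that makes type I collagen, was 3.083, 3.545, 4.116 and 4.991 in striatal IPs and 5.206, 14.47, 8.903 and 16.92 in hippocampal IPs, against 16.91, 15.09, 18.37 and 15.39 in striatal inputs and 39.79, 38, 39.73 and 46.98 in hippocampal inputs. The part of these cells in the Col1a2 and Col1a1 values was not tested.

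Lama2 was lower in striatal than in hippocampal IP (log2 fold change -0.63 ± 0.14, adjusted p = 0.00628), and its values, given above, did not overlap. The call was lost without animal 977 (adjusted p = 0.0867). Lamb2 did not pass (log2 fold change -0.52 ± 0.17, adjusted p = 0.0589) but did so with the animal as a block (adjusted p = 0.0173), as did Lama3, of the opposite sign (log2 fold change 0.40 ± 0.13, adjusted p = 0.0644, and adjusted p = 0.0327 with the block). Both also passed as fragments (0.021 for Lamb2 and 0.0164 for Lama3), with a pseudocount of 5 (0.0102 and 0.0433) and without striatal IP 970 (0.0336 and 0.0442). Itgb5 did not pass in the main fit (log2 fold change -0.50 ± 0.20, adjusted p = 0.128). It passed as fragments (0.0363), with a pseudocount of 5 (0.0299) and without striatal input 974 (0.0336). Itgam (log2 fold change 0.31 ± 0.18, adjusted p = 0.318) passed with a pseudocount of 0.1 (0.036). Itga5 was higher in striatal IP (log2 fold change 0.86 ± 0.20, adjusted p = 0.00904), a call lost without animal 977 (adjusted p = 0.149) and with a pseudocount of 5 (0.37, adjusted p = 0.0541), and Itga9 was higher (log2 fold change 0.86 ± 0.15, adjusted p = 7.60e-04). Itga8 was lower (log2 fold change -1.39 ± 0.21, adjusted p = 2.30e-04), as was Itga1 (log2 fold change -0.83 ± 0.17, adjusted p = 0.00307) and Itga4 (log2 fold change -0.81 ± 0.18, adjusted p = 0.0068), the last not passing once animal 971 (0.0524) or 977 (0.052) was left out. The highest hippocampal IP of Itga1, 2.71, came from animal 977. The hippocampal IP of that animal also had the highest ependymal and choroid plexus sum and the highest leptomeningeal fibroblast sum. The part of those cells in the Itga1 value was not tested.

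Without scaling, 69.4% of the calls over all genes between the IPs were higher in the striatum, against 59.5% with scaling, and for the region difference 72.2% were positive, against 62%. With median-of-ratios factors the region difference had 47.7% positive. Col9a3 was lower in striatal IP (log2 fold change -0.66 ± 0.17, adjusted p = 0.0167). The groups did not overlap, and leaving out animal 970 (adjusted p = 0.069), 971 (0.0535) or 977 (0.11) ended the call, as did leaving out striatal IP 977 (0.0647) or hippocampal IP 970 (0.0622) or 971 (0.0507), and a pseudocount of 0.1 (0.0542). Itga7 was lower by a smaller amount (log2 fold change -0.35 ± 0.11, adjusted p = 0.0465). That call was lost without any 1 of the 4 animals (adjusted p of 0.0632 to 0.324) and in 13 of 16 fits that left out 1 library (adjusted p of 0.0512 to 0.156). Of those 16 fits it held in 3, without striatal IP 970, hippocampal IP 970 or striatal input 974. It was lost too without scaling (0.196), with a pseudocount of 0.1 (0.148) and with only the IPs in the fit (0.0991).

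**Figure D4:**
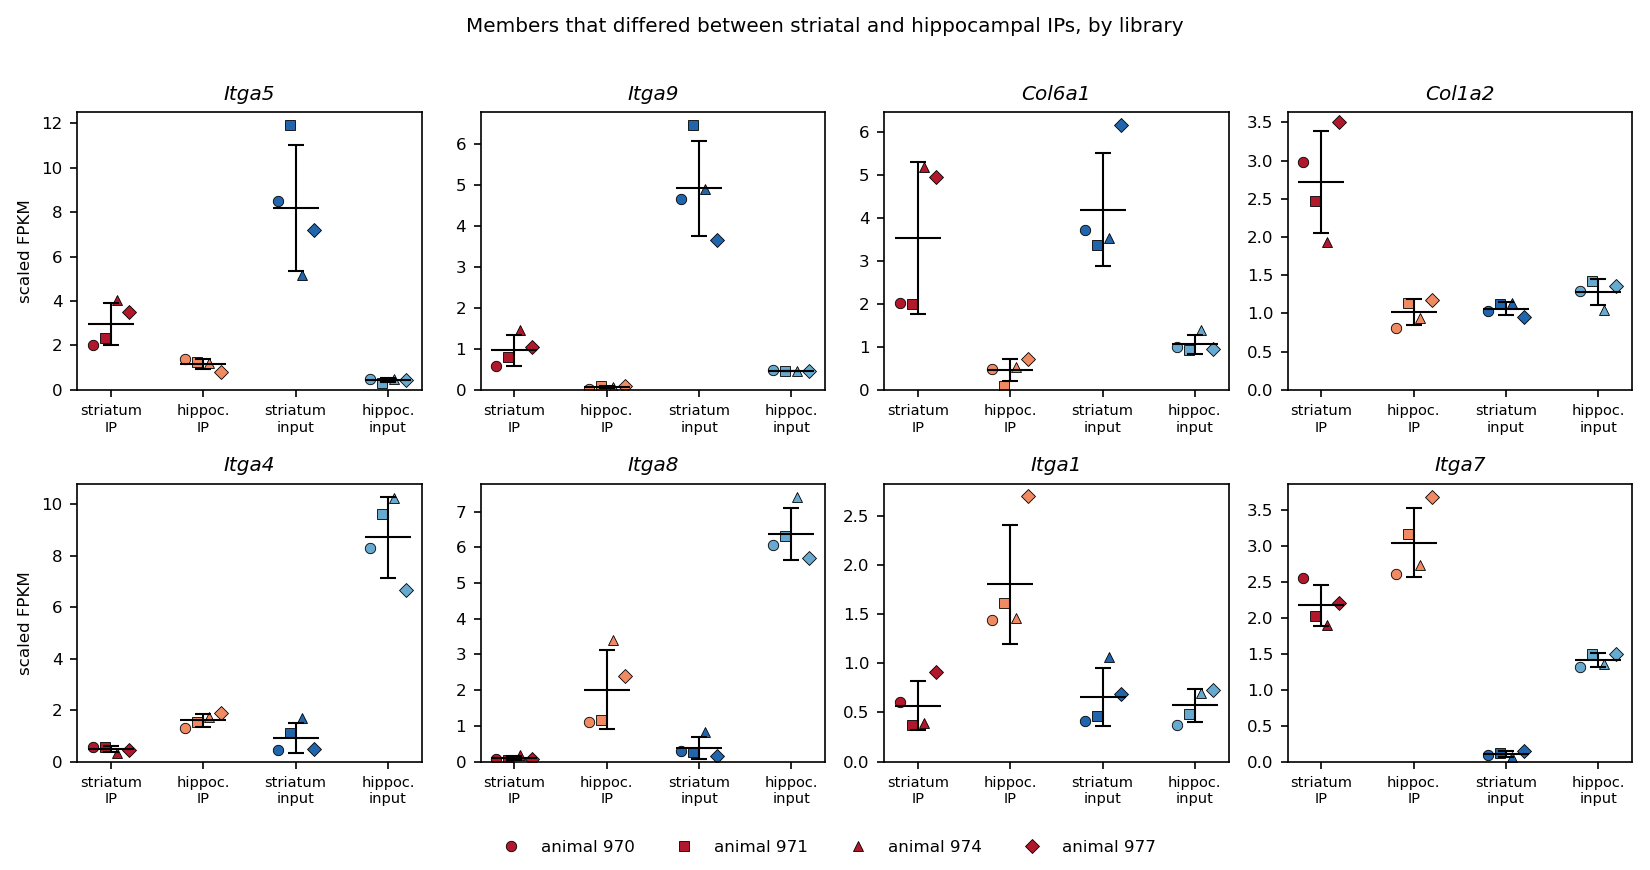
Scaled FPKM, on linear axes from 0, of 8 genes called between the IPs, with striatal IP, hippocampal IP, striatal input and hippocampal input from left to right; symbols are the 4 animals, and bars show the mean ± SD. Itga9 and Itga5 are highest in striatal inputs, Itga4 and Itga8 in hippocampal inputs, and Col1a2 in striatal IPs.

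The third comparison set the inputs, and so whole tissue, against each other. Between them, 5 of 32 genes were higher in the striatum (15.4% of all genes) and 8 were lower (21.1% of all genes). The higher ones were Itga5, Itga9, Col6a1, Itgav and Itgam, and the lower ones Itga8, Itga4, Itga7, Col4a1, Col25a1, Itga11, Itga3 and Col20a1. Cell type markers differed between the inputs too. Higher in striatal input were 8 of 11 oligodendrocyte, 4 of 13 microglial, 3 of 9 endothelial, 1 of 7 mural and 2 of 6 oligodendrocyte precursor markers tested, and lower were 4 of 9 neuronal, 5 of 9 leptomeningeal fibroblast and 1 of 5 ependymal and choroid plexus markers. Of 13 astrocyte markers, 1 was higher and 2 were lower. Their part in the differences between the inputs was not tested. On the log2(scaled FPKM + 1) scale the largest changes among the 32 were Itga5 (log2 fold change 2.64 ± 0.20, adjusted p = 3.66e-08), Itga8 (log2 fold change -2.43 ± 0.21, adjusted p = 1.39e-07), Itga4 (log2 fold change -2.37 ± 0.18, adjusted p = 4.41e-08) and Itga9 (log2 fold change 1.9992 ± 0.15, adjusted p = 2.57e-08). Each of these 4 also differed between the IPs with the same sign. The order depends on the scale, since as fragments the change of Itga7 was -3.47, against 3.36 for Itga9. Itgav and Itga7 had larger differences between inputs (1.14 ± 0.16 and -1.12 ± 0.11) than between IPs (-0.33 ± 0.16 and -0.35 ± 0.11). The calls of Itga3 and Col20a1 were each lost in all 3 fits without an animal in which the gene could be tested (adjusted p of 0.0564 to 0.141 and 0.0956 to 0.166). With 1 library left out, that of Itga3 was lost without striatal input 971 or 974 or hippocampal input 977 (0.0531 to 0.0651), and that of Col20a1 without striatal input 970 or 974 or hippocampal input 970 (0.0519 to 0.0771). Both were also lost as fragments (0.0548 for Itga3 and 0.0752 for Col20a1) and with only the inputs in the fit (0.0643 and 0.0706). That of Itgam was lost without animal 971 (0.104) or 974 (0.0574) and with only the inputs in the fit (0.069).

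**Figure D5:**
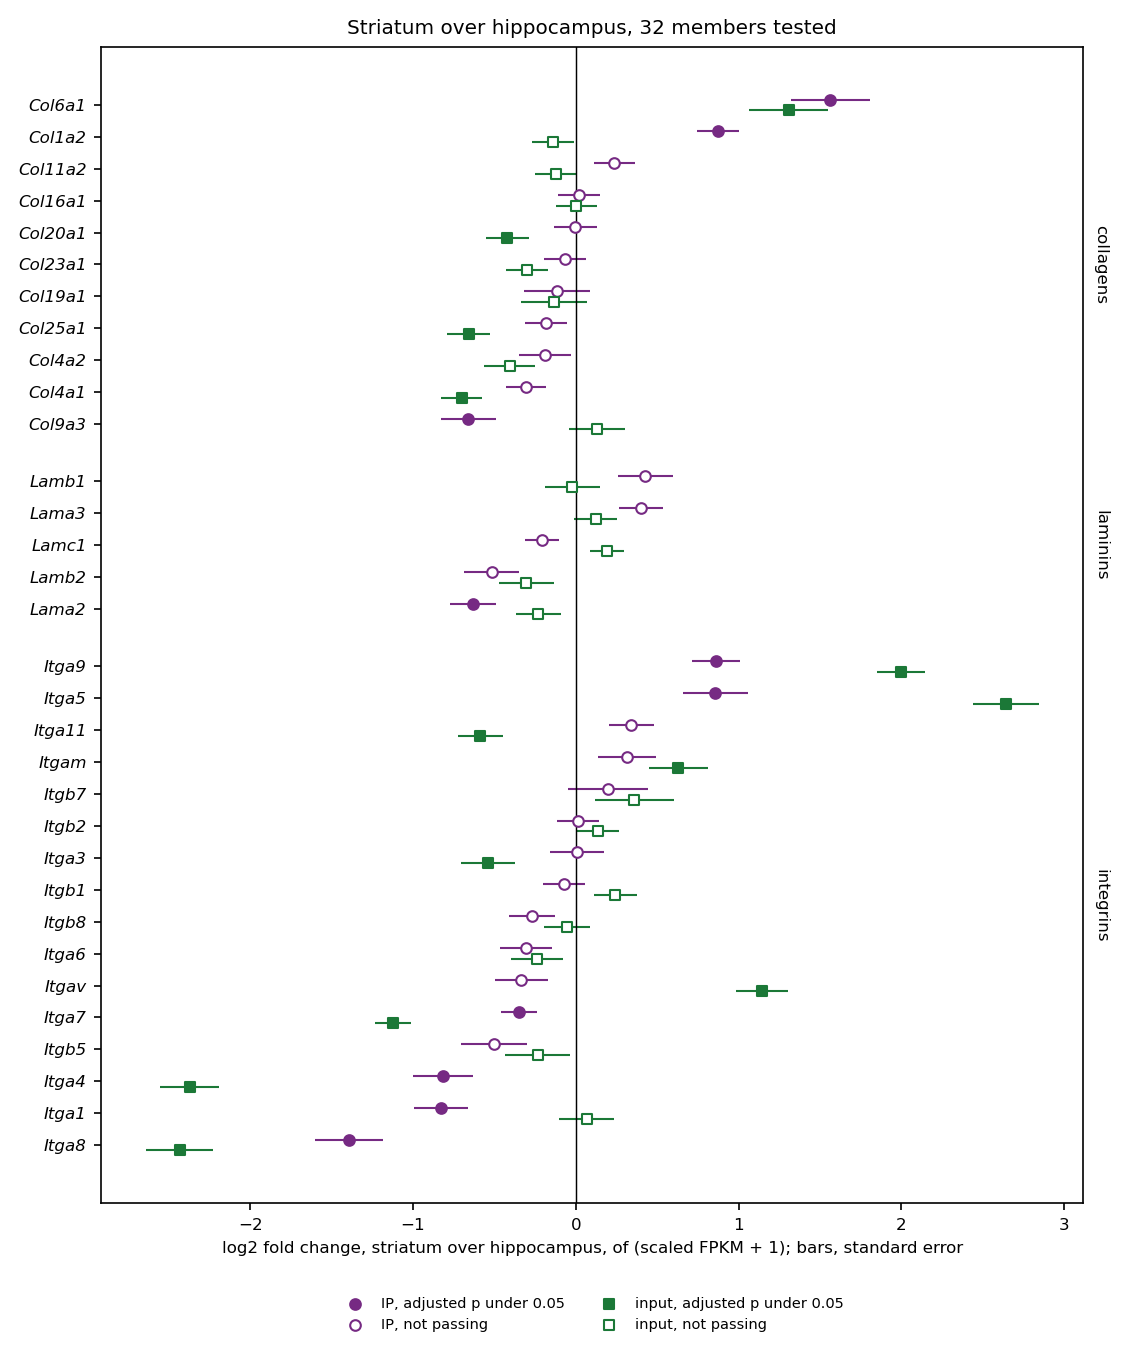
Log2 fold change of striatum over hippocampus (horizontal axis, on the log2(scaled FPKM + 1) scale, bars ± SE) for the 32 genes tested, with IPs as circles and inputs as squares, filled where adjusted p was under 0.05. Most IP circles lie near 0, the inputs of Itga5 and Itga9 lie at 2.64 and 1.9992, and those of Itga4 and Itga8 lie at -2.37 and -2.43.

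Of the 49 genes under the filter, 36 could be tested as fragments. In striatal IP over input, 5 of the 36 were higher (29.4% of all 14815 genes tested so) and 7 lower (32.2%), and in hippocampal IP over input 4 were higher (28.2%) and 14 lower (39.5%). Those higher in both regions were Col4a5, Col4a4 and Lama5. Lama5, the gene of the α5 chain of vessel basement membranes, had 132, 113, 59 and 83 fragments in striatal IPs, against 18, 13, 3 and 30 in striatal inputs (log2 fold change 1.54 ± 0.48, adjusted p = 0.00873), and 133, 183, 69 and 121 in hippocampal IPs, against 14, 27, 24 and 54 in hippocampal inputs (log2 fold change 1.63 ± 0.39, adjusted p = 9.74e-04). The fibrillar collagens Col5a1 and Col5a2 rose in striatal IP (log2 fold change 2.64 ± 0.66, adjusted p = 0.00172 and log2 fold change 2.76 ± 0.54, adjusted p = 1.88e-04). Striatal inputs held 1, 1, 1 and 4 fragments of Col5a1 and 3, 6, 0 and 5 of Col5a2. Col5a1 fell in hippocampal IP (log2 fold change -1.29 ± 0.37, adjusted p = 0.00484), with 13, 32, 19 and 35 fragments, against 39, 30, 54 and 45 in hippocampal inputs. Region differences as fragments were positive for 3 of the 36 (5.86% of all genes tested so) and negative for 1 (3.74%). The positive ones were Col5a1 (3.94, adjusted p = 0.00181), Col5a2 (2.34, adjusted p = 0.0313) and Col12a1 (2.25, adjusted p = 0.0424). Col12a1 fell in hippocampal IP (log2 fold change -1.91 ± 0.39, adjusted p = 2.63e-04) and did not pass in striatal IP (log2 fold change 0.34 ± 0.56, adjusted p = 0.612).

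Col2a1, the type II collagen chain that is the usual partner of types IX and XI in cartilage, rose in hippocampal IP, with 28, 43, 22 and 22 fragments, against 0, 3, 2 and 2 in hippocampal inputs (log2 fold change 3.46 ± 0.70, adjusted p = 2.11e-04). Within the striatum it had 8, 3, 10 and 12 in IPs, against 10, 1, 3 and 8 in inputs (log2 fold change -0.51 ± 0.65, adjusted p = 0.51), and the region difference was -3.97 (adjusted p = 0.0107). Between the IPs, 7 of the 36 were higher in the striatum (10.3% of all genes tested so) and 2 were lower (6.7%). Those lower were Col2a1 (log2 fold change -1.76 ± 0.51, adjusted p = 0.0212) and Col22a1, with 0, 0, 1 and 0 fragments in striatal IPs, against 3, 17, 12 and 8 in hippocampal IPs. The 13 genes too low to test were Col13a1, Col24a1, Col28a1, Col4a3, Col5a3, Col6a6, Col7a1, Col8a1, Col8a2, Itga2b, Itgad, Itgax and Itgb6.

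The other genes of the pathway were read from lists. Of all 13470 genes tested, 32.1% were higher and 33.1% lower in striatal IP, and 28.6% higher and 37.1% lower in hippocampal IP. Of 18 matrix proteins that bind laminins, collagens or integrins and could be tested, 11 were higher and 3 lower in striatal IP, and 10 were higher and 5 lower in hippocampal IP. Sparc, a collagen-binding glycoprotein, averaged 591 ± 278 in striatal IPs and 746 ± 185 in hippocampal IPs, against 49.6 ± 16.4 in striatal inputs and 52.2 ± 8.36 in hippocampal inputs. Vtn, the αv ligand vitronectin, fell to 0.831 ± 0.215 in striatal IPs, against 9.21 ± 2.84 in striatal inputs (log2 fold change -2.44 ± 0.19, adjusted p = 9.6e-09), and to 1.73 ± 0.557 in hippocampal IPs, against 11.8 ± 0.808 in hippocampal inputs (log2 fold change -2.25 ± 0.19, adjusted p = 2.02e-08). The basement membrane linker Nid1 fell in striatal IP (log2 fold change -1.15 ± 0.17, adjusted p = 2.37e-05) and did not pass in hippocampal IP (log2 fold change -0.32 ± 0.17, adjusted p = 0.119).

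Of 26 genes of collagen modification, folding and cross-linking, 17 were higher and 5 lower in striatal IP, and 16 higher and 5 lower in hippocampal IP, where the shares over all genes were 32.1% higher and 33.1% lower in the striatum and 28.6% higher and 37.1% lower in the hippocampus. Fkbp10, a collagen chaperone of the endoplasmic reticulum, averaged 5.76 ± 1.09 in striatal IPs, against 0.229 ± 0.280 in striatal inputs (log2 fold change 2.47 ± 0.17, adjusted p = 3.27e-09), and 9.62 ± 0.990 in hippocampal IPs, against 0.453 ± 0.260 in hippocampal inputs (log2 fold change 2.88 ± 0.17, adjusted p = 4.27e-10). The lysyl hydroxylase gene Plod1 rose by 2.50 in the striatum and 2.81 in the hippocampus on the log2 scale, with adjusted p = 1.43e-09 and 2.83e-10. Adamts3, a procollagen protease, fell in both regions (log2 fold change -1.46 ± 0.23, adjusted p = 2.83e-05 and log2 fold change -1.15 ± 0.23, adjusted p = 2.83e-04) and was higher in striatal than in hippocampal IP (log2 fold change 1.70 ± 0.23, adjusted p = 7.71e-05).

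Of 9 matrix receptors other than integrins, 7 were higher in striatal IP (32.1% of all genes) and the others did not pass, and 8 were higher (28.6%) and 1 lower (37.1%) in hippocampal IP. Sdc4, a heparan sulphate co-receptor of integrins, averaged 398 ± 97.7 in striatal IPs and 586 ± 82.96 in hippocampal IPs, against 27.9 ± 14.2 in striatal inputs and 49.3 ± 3.23 in hippocampal inputs. Dag1, the dystroglycan gene whose product binds laminin α2, rose in both regions (log2 fold change 1.99 ± 0.12, adjusted p = 8.61e-10 and log2 fold change 2.39 ± 0.12, adjusted p = 8.51e-11) and, like Lama2, was lower in striatal than in hippocampal IP (log2 fold change -0.47 ± 0.12, adjusted p = 0.0178). Ddr2, a collagen-binding kinase, was lower in striatal IP with 1.71 ± 0.668, against 5.66 ± 1.28 in hippocampal IP (log2 fold change -1.31 ± 0.17, adjusted p = 7.99e-05).

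Of 24 cytoplasmic integrin adaptors tested, 14 were higher (32.1% of all genes) and 6 lower (33.1%) in striatal IP, and 15 were higher (28.6%) and 6 lower (37.1%) in hippocampal IP. Fermt2, the kindlin that activates integrins, averaged 170.0 ± 40.8 in striatal IPs, against 26.8 ± 7.005 in striatal inputs (log2 fold change 2.62 ± 0.18, adjusted p = 2.82e-09), and 208 ± 27.4 in hippocampal IPs, against 23.5 ± 1.36 in hippocampal inputs (log2 fold change 3.08 ± 0.18, adjusted p = 3.34e-10). Tns3 and Vcl, which tie integrins to actin, rose in both regions by 2.87 and 2.1697 in the striatum and by 3.06 and 2.57 in the hippocampus on the log2 scale (adjusted p = 3.67e-11 for Tns3 and 9.12e-11 for Vcl in the striatum, 1.32e-11 and 1.32e-11 in the hippocampus). Ptk2b, a focal adhesion kinase relative enriched in neurons, fell in both (log2 fold change -2.48 ± 0.17, adjusted p = 2.82e-09 and log2 fold change -3.25 ± 0.17, adjusted p = 1.05e-10).

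Of 6 genes of latent TGF-β that could be tested, 3 were higher and 2 lower in each region, against 32.1% higher and 33.1% lower over all genes in the striatum and 28.6% and 37.1% in the hippocampus. Ltbp1, a latent TGF-β binding protein, had 4.62, 5.86, 3.02 and 4.74 in striatal IPs, against 0.201, 0.379, 0.554 and 0.333 in striatal inputs (log2 fold change 2.0047 ± 0.16, adjusted p = 1.1e-08). Hippocampal IPs had 11.4, 11.2, 7.87 and 9.38, against 0.782, 0.712, 0.591 and 0.657 in hippocampal inputs (log2 fold change 2.69 ± 0.16, adjusted p = 2.97e-10). All IPs lay above all inputs, and the striatal IPs lay below the hippocampal IPs (log2 fold change -0.99 ± 0.16, adjusted p = 3.50e-04). Tgfb2, a TGF-β ligand, averaged 13.0 ± 1.86 in striatal IPs and 23.6 ± 3.27 in hippocampal IPs, against 3.36 ± 1.06 in striatal inputs and 18.4 ± 2.31 in hippocampal inputs. It rose in striatal IP (log2 fold change 1.70 ± 0.16, adjusted p = 1.05e-07) and did not pass in hippocampal IP (log2 fold change 0.34 ± 0.16, adjusted p = 0.0688), with a region difference of 1.36 ± 0.23 (adjusted p = 6.41e-04).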

How the data were processed

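RNA from input and hemagglutinin IP of 4 animals was made into libraries with the Nugen Ovation RNA-Seq System V2 kit, per the labels, and read paired-end. The authors deposited 1 table of FPKM per library. The submitters' processing notes name bcl2fastq 2.17, STAR, HTSeq and the mm10 build, with no role or order. Whether counting used strand is not given in the sources used here.

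Deposited FPKM were divided by a trimmed-mean factor per library (0.777 to 1.28), log2-transformed with a pseudocount of 1 and tested with limma 3.58.1 in R 4.3.3 for the 13470 genes that reached 1 FPKM in 4 or more libraries. One model held 16 libraries in 4 groups (12 residual degrees of freedom). Whole fragments were recovered from the FPKM steps for 99.3% of genes (within 0.01 of a whole number), and tested with limma-voom as an alternative chosen after seeing the data. The total of fragments rests on GENCODE gene lengths, so its absolute size is an estimate.

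Libraries with the same number came from the same animal. The correlation of their deviations from group means was 0.3028 to 0.5255 between IPs, 0.0541 to 0.3184 between inputs, 0.0856 to 0.1713 between hippocampal IP and input and -0.0085 to 0.0848 between striatal IP and input. The animal as a block was an alternative. In the main fit the p-values rest on a spread between libraries that is pooled over the 4 groups and moderated across genes. Except with the block, libraries of the same animal entered as independent.

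Genes were named by size of change among called genes with a mean of at least 2, by p for the region difference and for lists, and as the highest of each role. Genes under the filter, and others outside this rule, were named after their values were seen. The genes and lists were chosen with earlier results of these data known. The steps were run on simulated data, the outcome of which is not given here. Changes were set in striatal IPs alone, for genes with a mean of at least 2 FPKM. Every gene had the same spread, and there was no effect of the animal. Such data cannot show how changes in lower genes, or libraries of the same animal, are handled. Symbols altered to dates (25 labels) were left as deposited.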

Additional observations from a re-analysis of the deposited data

Results flagged for a closer look

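In 7 of the 128 sets of 4 libraries (32 genes in 4 groups), 1 library lay further from the others than the 95% limit of Dixon's test, where chance gives about 1 in 20. Itgb7 was high in striatal IP 977 at 1.268, against 0.2644 to 0.4219 in the other striatal IPs. Itga1 was high in hippocampal IP 977 at 2.712, against 1.442 to 1.615. Col6a1 was high in striatal input 977 at 6.148, against 3.353 to 3.705, and in hippocampal input 974 at 1.391, against 0.9213 to 0.9885. Itga6 was low in striatal input 971 at 1.156, against 1.575 to 1.635, and Lamb2 was low in striatal input 974 at 0.1809, against 0.8233 to 0.8779. Itgb5 was high in hippocampal input 971 at 2.084, against 1.94 to 1.962.

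The change of IP over input differed between striatum and hippocampus by limma's test of the difference for 10 genes. On the log2 scale, striatum minus hippocampus, it was positive for Itga4 (1.5569), Itga8 (1.0415), Col1a2 (1.0131), Itga11 (0.9266) and Itga7 (0.775). It was negative for Itga5 (-1.7855), Itgav (-1.4766), Itga9 (-1.1392), Itga1 (-0.8943) and Col9a3 (-0.7901). Over all genes tested, 8.77% were positive and 5.37% negative. With limma-voom on fragments, Itga8 (0.0885, adjusted p = 0.965) and Col9a3 (-0.9132, adjusted p = 0.113) did not pass. Itga9 (0.3862, adjusted p = 0.712) did not pass either and changed sign. The other genes listed passed as fragments. The call of Col9a3 was lost whichever animal was left out. Those of Itga1, Itga7, Itga8 and Itga11 were each lost in a fit without an animal.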

How the results depend on the processing

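Counts of called genes moved with the filter and the scale, which also changed how many were tested, 32 with the filter at 1 FPKM. With 5 FPKM asked for in 4 libraries, 13 were tested. IP over input had 9 higher (35.7% of all genes tested so) and 2 lower (36.8%) in the striatum. It had 9 higher (33.1%) and 4 lower (39.1%) in the hippocampus. Between the IPs 0 were higher (7.47%, with 1 at an unadjusted limma p under 0.05, and 13 of 68 as fragments) and 4 were lower (5.95%). Between the inputs 2 were higher (17%) and 2 lower (24%), and region differences were positive for 2 (9.41%) and negative for 2 (6.42%). With no filter all 81 were tested, and 14 were lower in striatal IP (23.9% of all genes tested so), 22 lower in hippocampal IP (28.2%), 10 higher (10.9%) and 15 lower (15.2%) between inputs, and 8 region differences positive (6.13%). As fragments 68 were tested, and 14 were lower in striatal IP (32.2%), 26 lower in hippocampal IP (39.5%), 13 higher (10.3%) and 11 lower (6.7%) between IPs, and 10 higher between inputs (12.7%). Of these, the 32 gave 7 lower in striatal IP, 12 lower in hippocampal IP, 6 higher and 9 lower between IPs and 5 higher between inputs. Without striatal inputs 971 and 974, 4 were lower in striatal IP and 3 higher between inputs, and Gpc1 in striatal IP over input became -0.4856 (adjusted p = 0.00552), against 0.06 with all libraries (adjusted p = 0.835). With a pseudocount of 0.1, 3 region differences were negative. Leaving out 1 animal or 1 library gave 15 to 17 higher and 6 to 8 lower in striatal IP, 14 to 16 higher and 9 to 11 lower in hippocampal IP, 3 to 5 higher and 2 to 8 lower between IPs, 3 to 6 higher and 6 to 9 lower between inputs, and 3 to 7 positive and 2 to 5 negative region differences. Counts that moved by over 1.5 times did so without 1 animal: between IPs 3 were lower without 971 and 2 without 977, between inputs 3 were higher without 974, and region differences were 3 positive and 3 negative without 970 or without 971, and 2 negative without 974. For the pseudocount of 0.1 and the fits that left out animals or libraries, the shares over all genes are not given here. Those counts therefore only describe these genes. Region differences that turned as fragments were Itga9 (0.3862), Dcn (-1.4963), Kl (-0.5925), Smoc2 (-0.0908) and Parvg (-0.3571). Except where a construction such as fewer genes or libraries changes the count, the cause was not tested.

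With the animal as a replicate block, no call among the 32 was lost and 4 were gained: Col6a1 in hippocampal IP over input (adjusted p = 0.0303), Lamb2 (0.0173) and Lama3 (0.0327) between IPs, and Col4a2 between inputs (0.0372). The share of all genes that gained or lost a call with the block is not given here. Depth limits the striatal inputs most, where several low genes rest on under 10 fragments.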
